A study of Homo sapiens with 9 samples.

Results

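The genes described here make up the folding machinery of the endoplasmic reticulum and the unfolded protein response, the signalling system that adjusts it. They were 38 listed genes, each represented by the probe set annotated to it alone that had the highest mean log2 intensity over all arrays. Such a probe set existed for 37 of them, out of 19775 genes measured in this way. SYVN1, the ubiquitin ligase of endoplasmic reticulum degradation, had no probe set annotated to it alone and was left out. The 37 were 6 sensors and transcription factors, 11 chaperones and cochaperones, 7 disulfide enzymes, 8 degradation genes and 5 genes of protein entry, signal peptide removal, export and membrane function.

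Secretory proteins enter the endoplasmic reticulum unfolded, are held by chaperones such as BiP (HSPA5), receive disulfide bonds from protein disulfide isomerases and leave in COPII vesicles. Proteins that fail to fold are drawn back into the cytosol and degraded. The membrane sensors IRE1 (ERN1), PERK (EIF2AK3) and ATF6 report the load and raise the transcription of this machinery, IRE1 through splicing of XBP1 mRNA and PERK through translation of ATF4. In liver cells, which secrete most plasma proteins, this capacity is large, and the sensors also respond to the lipid composition of the membrane.

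Total RNA of Huh7 cells, an established human hepatocarcinoma line, was measured on 9 Affymetrix arrays in 3 groups of 3 biological replicates. One group received siRNA against the subunits of serine palmitoyltransferase, the enzyme of the first step of ceramide synthesis, called SPTLC123 in the labels. Another received siRNA against DEGS1, the desaturase that turns dihydroceramide into ceramide, and the last received scramble siRNA, all at 20 nM. The labels place the cells at 72 h, whereas the protocol changes the medium to one conditioned with 1% serum at that time and harvests 24 h later. All groups carry the transfection and this medium, all come from 1 tumour-derived line, and the siRNA sequences are not given in the sources used here.

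The targeted genes were checked first. SPTLC1 read 8.53, 8.77 and 8.72 on the log2 scale in SPTLC123 arrays, against 11.02, 10.83 and 10.98 in scramble arrays, and was at 20.7% of the scramble level. SPTLC2 was at 48.4% of the scramble level in SPTLC123 arrays, and DEGS1 at 7.55% in DEGS1 arrays. A further targeted subunit was not analysed here. All 9 measured markers of hepatocytes lay above 4.87, the median level of all probe sets, with list means of 12.69 to 12.83 in SPTLC123, 12.84 to 13.00 in DEGS1 and 13.06 to 13.18 in scramble arrays. By the mean over all arrays, 0 of 3 leukocyte, 2 of 3 endothelial and 2 of 5 stellate and fibroblast markers lay above it. The leukocyte marker CD14 was lower in both knockdowns, at 4.35 to 4.70 in SPTLC123 and 4.31 to 4.82 in DEGS1 arrays, against 5.0 to 5.38 in scramble arrays (limma adjusted p = 0.0253 and 0.049). The rest of the leukocyte list did not follow it: PTPRC changed by 0.37 for SPTLC123 and 0.26 for DEGS1, and CD3E by -0.08 for each, none called. The ranges of the hepatocyte list mean in both knockdowns lay below that in scramble arrays. For SPTLC123 all 9 changes were negative, from -1.03 to -0.14. TTR, APOA1, TF and SERPINA1 were called lower there (limma adjusted p from 0.00432 to 0.0395). For DEGS1 the changes went both ways: APOH and TTR were called lower (-0.95 and -0.69). APOA1 and FGB were higher in every DEGS1 array than in scramble arrays, without a call (0.22 and 0.31). The rest had changes from -0.29 to -0.06, none called. The part of these markers in the changes below was not tested.

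A set of 3 arrays stood apart in the control probe sets that read the 3′ and 5′ ends of the actin transcript. In SPTLC123 replicate 3 and DEGS1 replicates 2 and 3 the 3′ signal exceeded the 5′ signal by 1.15 to 1.31 on the log2 scale, against 0.40 to 0.56 in the other 6 arrays. The same control pair for GAPDH gave 0.25 to 0.40 in these 3 arrays and -0.09 to 0.01 in the others. No scramble array was among them, so weak 5′ signal and DEGS1 silencing overlap in 2 of 3 arrays. Each called member is given with these arrays and without them. A fit without them holds 1 DEGS1 array, so the spread of that group is taken from the others.

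The promoters of 5 genes, chosen after values were seen, are shown. HSPA5 and XBP1 were called for DEGS1 and hold the endoplasmic reticulum stress element. DNAJB9, EDEM1 and PDIA4 had the largest DEGS1 change of their groups and do not hold it. Whether the element has a part in the changes was not tested. The letters are the 250 bases before the gene's start, read 5′ to 3′ on the gene's strand, from RefSeq on GRCh38.p14. XBP1 and PDIA4 had 2 starts each, and the one farthest upstream is printed. For XBP1 it was taken from the starts that hold the element. Capitals mark every CCACG or its reverse complement CGTGG, the part of the element that ATF6 reads, and the CCAAT that precedes it in a whole element.
HSPA5 (chr9:125241344-125241593, minus strand): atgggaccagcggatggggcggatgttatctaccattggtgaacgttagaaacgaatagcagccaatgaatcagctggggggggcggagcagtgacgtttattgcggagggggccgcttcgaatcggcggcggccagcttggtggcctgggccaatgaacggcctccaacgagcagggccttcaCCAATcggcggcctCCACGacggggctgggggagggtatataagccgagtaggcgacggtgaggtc
XBP1 (chr22:28800570-28800819, minus strand): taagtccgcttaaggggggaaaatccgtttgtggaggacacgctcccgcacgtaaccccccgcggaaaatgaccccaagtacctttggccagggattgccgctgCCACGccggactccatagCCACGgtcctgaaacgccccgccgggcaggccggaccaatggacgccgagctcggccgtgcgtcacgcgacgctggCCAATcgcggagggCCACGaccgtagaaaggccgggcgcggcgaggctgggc
DNAJB9 (chr7:108569624-108569873, plus strand): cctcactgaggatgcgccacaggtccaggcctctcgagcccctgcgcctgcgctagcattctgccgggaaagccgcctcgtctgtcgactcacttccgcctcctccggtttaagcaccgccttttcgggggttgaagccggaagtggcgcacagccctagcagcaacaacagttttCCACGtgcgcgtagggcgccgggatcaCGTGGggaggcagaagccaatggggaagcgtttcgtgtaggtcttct
EDEM1 (chr3:5187457-5187706, plus strand): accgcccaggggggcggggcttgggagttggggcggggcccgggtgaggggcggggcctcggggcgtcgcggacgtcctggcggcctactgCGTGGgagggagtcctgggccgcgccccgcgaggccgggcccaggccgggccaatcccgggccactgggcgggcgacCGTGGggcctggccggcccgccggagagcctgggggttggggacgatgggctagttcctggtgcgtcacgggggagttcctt
PDIA4 (chr7:149028491-149028740, minus strand): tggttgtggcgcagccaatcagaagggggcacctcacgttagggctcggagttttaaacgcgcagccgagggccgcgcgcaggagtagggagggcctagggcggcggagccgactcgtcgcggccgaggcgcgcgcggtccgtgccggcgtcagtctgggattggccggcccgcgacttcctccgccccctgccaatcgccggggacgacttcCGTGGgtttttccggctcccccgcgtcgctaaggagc
Windows of 250 bases before to 50 after the start were matched for 34 listed genes, SYVN1 included, and searched on both strands. The whole element, CCAAT and CCACG with 9 bases of any kind between them, was found in 8 of these 34 genes (23.5%), against 25 of 27305 genes in all (0.0916%). Those 8 were HSPA5, XBP1, HSP90B1, CALR, CANX, PDIA6, CRELD2 and ERO1B, and they are among the 25. The members were listed as genes of this response, so their share with the element is not a result of the arrays. For the genes whose promoters are not printed above, the elements follow with up to 10 bases on each side, and capitals mark the CCAAT and CCACG of the whole element alone, on whichever strand it lies.
HSP90B1 (chr12:103930216-103930234, plus strand): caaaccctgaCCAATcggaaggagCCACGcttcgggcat
HSP90B1 (chr12:103930321-103930339, plus strand): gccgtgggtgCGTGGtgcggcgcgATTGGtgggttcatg
CALR (chr19:12938384-12938402, plus strand): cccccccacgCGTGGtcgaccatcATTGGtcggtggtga
CANX (chr5:179698778-179698796, plus strand): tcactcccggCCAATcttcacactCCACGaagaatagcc
PDIA6 (chr2:10812853-10812871, minus strand): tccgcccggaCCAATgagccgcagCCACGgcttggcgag
CRELD2 (chr22:49918554-49918572, plus strand): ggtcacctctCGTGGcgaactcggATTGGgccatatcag
ERO1B (chr1:236282183-236282201, minus strand): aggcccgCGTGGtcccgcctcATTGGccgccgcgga
A second form, ATTGG and CCACG with 1 base of any kind between them, stood in HERPUD1, SDF2L1 and, at 2 places, HYOU1, against 0.0696% of all genes. The core TGACGTGG stood in DNAJC10 and HYOU1, where it overlaps one of the second-form matches, against 0.927% of all genes. TGATGCAA, a letter string read by ATF4 and its partners, stood in HERPUD1 and in 1.08% of all genes. The 5 letters CCACG alone were found for 25 of the 34 genes (73.5%) and for 42.1% of all. These are matches of letters, and binding was not measured.

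Silencing of the palmitoyltransferase moved a share of these genes near that of all genes, and in both directions. Of 37 members, 5 were called (13.5%), against 9.94% of all genes: PDIA4 and DNAJC3 rose, and ERO1A, EDEM1 and DNAJC10 fell. Calls are at a limma p under 0.05 after Benjamini-Hochberg adjustment over the 19775 genes. In these bulk samples, less RNA per cell and fewer cells with that RNA cannot be told apart. The higher calls were 2 of 37 against a background of 5.31%, and the lower calls 3 of 37 against 4.63%. The median change was -0.12 over the members and -0.03 over all genes, and 27 of the 37 values were negative. The count was 3 without SPTLC123 replicate 1, and 5 without the 3 arrays of weak 5′ signal, where DNAJC3 was not called and CREB3L2 was, at -0.49 ± 0.10 (adjusted p = 0.0211).

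After silencing of DEGS1 most of the called members were lower. Of 37 members, 11 were called (29.7%), against 9.7% of all genes. CREB3L3 and PDIA4 rose (2 of 37, background 4.66%), and EIF2AK3, XBP1, HSPA5, DNAJB9, DNAJC10, ERO1A, EDEM1, SEC61B and SEC24D fell (9 of 37, background 5.04%). The median change was -0.19 over the members and -0.01 over all genes, with 26 of 37 values negative. In 16 members (43.2%) the DEGS1 and scramble arrays did not overlap, against 26.3% of all genes, and for SPTLC123 it was 11 members (29.7%) against 28.9%. The count of calls was 6 without DEGS1 replicate 2 and also without DEGS1 replicate 3, 16 without DEGS1 replicate 1, and 7 without any one scramble array. Without the 3 arrays of weak 5′ signal, PDIA4 and EDEM1 were the 2 members still called. With all arrays and the actin 3′ minus 5′ difference as a covariate, 7 were called: the calls of EIF2AK3, HSPA5, CREB3L3, DNAJC10, ERO1A and SEC61B were lost (adjusted p from 0.052 to 0.203), and ERN1 and CREB3L2 were called, at -0.64 and -0.58 (adjusted p = 0.0447 and 0.0177).

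Both comparisons use the same 3 scramble arrays. PDIA4, DNAJC10, ERO1A and EDEM1 were called in both, 4 members each moving in 1 direction. Set against each other, DEGS1 and SPTLC123 arrays differed in 6 members (16.2%), against 8.66% of all genes. CREB3L3 and ERO1A were higher after DEGS1 silencing (background 3.7%), and XBP1, DNAJB9, SEC11C and SEC24D were lower (background 4.96%). The count was 2 without SPTLC123 replicate 1 and without DEGS1 replicate 2, 3 without DEGS1 replicate 3, and 12 without DEGS1 replicate 1. Without the 3 arrays of weak 5′ signal 1 call was left, that of ERO1A.

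**Figure D1:**
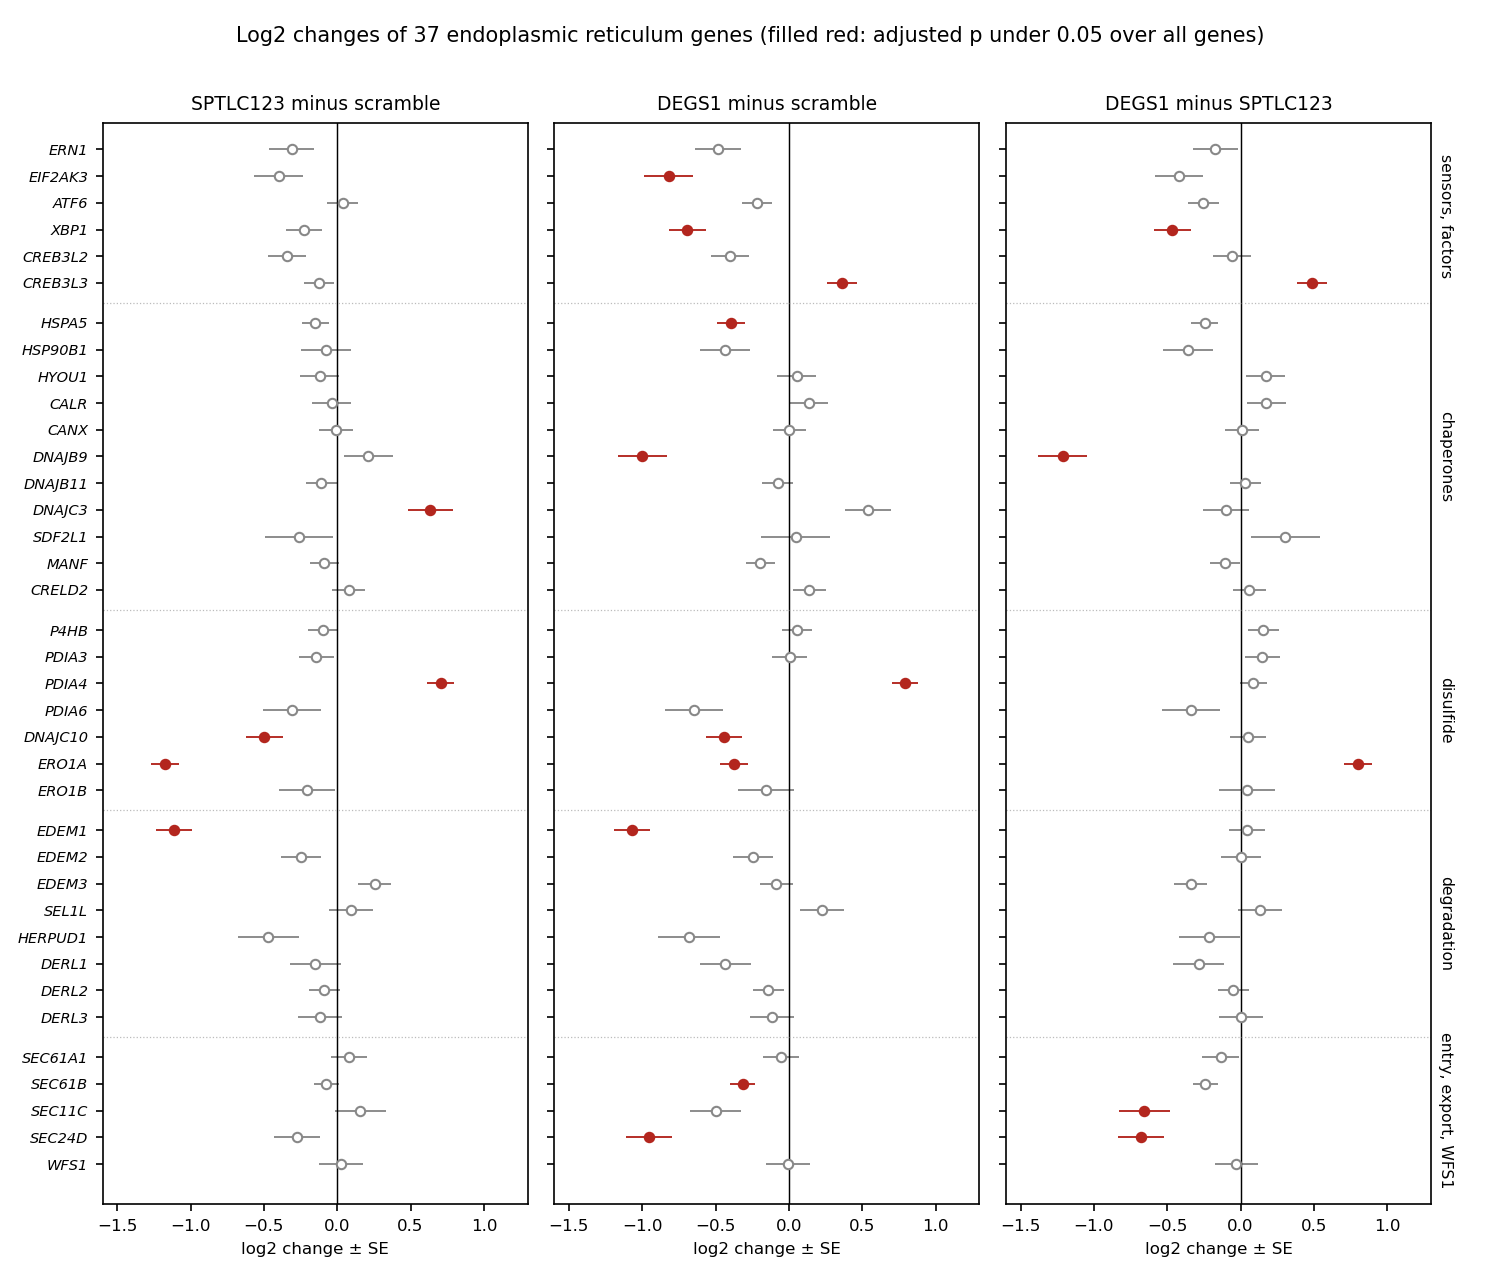
Log2 change of each of the 37 members with its standard error from the limma fit, by role, for each knockdown against scramble and for DEGS1 against SPTLC123. Filled red points are called at an adjusted p under 0.05, which holds for 5, 11 and 6 members. Most chaperones lie near 0 in all 3 panels, while DNAJB9, ERO1A, EDEM1 and SEC24D have values near or beyond -1 in at least 1 panel.

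Among the sensors, the mRNA of PERK fell after DEGS1 silencing. EIF2AK3, which encodes it, read 8.16, 8.38 and 8.36 in SPTLC123 arrays, 8.18, 7.48 and 7.98 in DEGS1 arrays and 8.56, 8.91 and 8.63 in scramble arrays. Every knockdown array lay below every scramble array, and DEGS1 replicate 2 was the lowest of all. Its change was -0.82 ± 0.17 for DEGS1 (SE, n = 3 arrays each, limma adjusted p = 0.0112), to 56.6% of the scramble level, and -0.40 ± 0.17 for SPTLC123 (adjusted p = 0.17). No single omission ended the DEGS1 call (adjusted p up to 0.0469). With the actin covariate the DEGS1 change was -0.69 ± 0.18 (adjusted p = 0.052), and without the weak arrays it was -0.52 ± 0.17 (adjusted p = 0.227).

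The other 2 sensors had no call. ERN1, which encodes IRE1, read 6.60, 6.63 and 7.18 in SPTLC123 arrays, 6.61, 6.67 and 6.61 in DEGS1 arrays and 6.88, 7.31 and 7.15 in scramble arrays. All 3 DEGS1 arrays lay below the scramble arrays, and SPTLC123 replicate 3 lay among them. The changes were -0.48 ± 0.16 for DEGS1 (limma adjusted p = 0.0785) and -0.31 ± 0.16 for SPTLC123 (adjusted p = 0.267). ATF6 read 8.26, 8.25 and 8.27 in SPTLC123 arrays, 8.19, 8.0 and 7.83 in DEGS1 arrays and 8.33, 8.15 and 8.19 in scramble arrays. DEGS1 arrays lay below all SPTLC123 arrays, and scramble arrays overlapped both. The changes were 0.04 ± 0.10 for SPTLC123 and -0.22 ± 0.10 for DEGS1 (adjusted p = 0.888 and 0.231).

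XBP1, whose mRNA IRE1 splices into the form that encodes the active factor, fell after DEGS1 silencing. Its probe set read 11.28, 11.22 and 11.13 in SPTLC123 arrays, 10.92, 10.86 and 10.46 in DEGS1 arrays and 11.44, 11.55 and 11.32 in scramble arrays. The groups did not overlap: DEGS1 arrays were the lowest and SPTLC123 arrays lay between. The DEGS1 change was -0.69 ± 0.13, to 61.8% of the scramble level (limma adjusted p = 0.00643), and no single omission ended the call. The SPTLC123 change was -0.23 ± 0.13 (adjusted p = 0.317). DEGS1 arrays were lower than SPTLC123 arrays by a change of -0.47 ± 0.13 (adjusted p = 0.0423), a call that 7 of the 9 single omissions ended, all but those of DEGS1 replicate 1 and scramble replicate 2 (adjusted p up to 0.159). Without the weak arrays the change against scramble was -0.52 ± 0.13 (adjusted p = 0.132). The values count total XBP1 mRNA, and spliced and unspliced forms were not told apart.

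The liver-enriched factor CREB3L3, which is cleaved in the Golgi as ATF6 is, moved the other way. It read 7.92, 8.01 and 8.04 in SPTLC123 arrays, 8.56, 8.52 and 8.36 in DEGS1 arrays and 8.11, 7.97 and 8.27 in scramble arrays. DEGS1 arrays were above all others, and SPTLC123 and scramble arrays overlapped. The rise against scramble was 0.36 ± 0.10 (limma adjusted p = 0.0483), and it lost its call under every single omission but that of scramble replicate 3 (adjusted p up to 0.159). Against SPTLC123 the difference was 0.49 ± 0.10 (adjusted p = 0.0133), a call lost without SPTLC123 replicate 1 or DEGS1 replicate 2 (adjusted p up to 0.0638). Without the weak arrays the 2 values were 0.44 ± 0.15 and 0.59 ± 0.16 (adjusted p = 0.241 and 0.131). CREB3L2, a related factor, had changes of -0.34 ± 0.13 for SPTLC123 and -0.40 ± 0.13 for DEGS1, both without a call (adjusted p = 0.136 and 0.0792).

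Most chaperones differed little. Of the 11, 1 was called for SPTLC123 and 2 for DEGS1, against 9.94% and 9.7% of all genes. The median changes of the 11 were -0.08 and 0.00. HSPA5, the BiP chaperone that binds nascent chains and the sensors themselves, read 12.69, 12.75 and 12.84 in SPTLC123 arrays, 12.66, 12.44 and 12.44 in DEGS1 arrays and 12.92, 12.86 and 12.95 in scramble arrays. Every knockdown array lay below every scramble array. The DEGS1 change was -0.39 ± 0.09, to 76.1% of the scramble level (limma adjusted p = 0.024), and the SPTLC123 change was -0.15 ± 0.09 (adjusted p = 0.389). The DEGS1 call was lost without DEGS1 replicate 2 or 3 or scramble replicate 1 or 3 (adjusted p up to 0.107), with the actin covariate (-0.35 ± 0.11, adjusted p = 0.0926) and without the weak arrays (-0.25 ± 0.12, adjusted p = 0.451).

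DNAJB9, the cochaperone ERdj4 that brings BiP to the lumenal side of IRE1 and is a known target of XBP1, had the lowest DEGS1 value among the chaperones. It read 10.23, 10.11 and 10.32 in SPTLC123 arrays, 9.40, 8.75 and 8.87 in DEGS1 arrays and 9.75, 10.04 and 10.23 in scramble arrays. All DEGS1 arrays lay below all others, whereas SPTLC123 and scramble arrays overlapped. DEGS1 silencing lowered it by a log2 change of -1.0 ± 0.17, to 49.98% of the scramble level (limma adjusted p = 0.00444), and SPTLC123 gave 0.21 ± 0.17 (adjusted p = 0.514). The knockdowns differed by -1.21 ± 0.17 (adjusted p = 0.00136), with DEGS1 lower, and both calls held under each single omission. The lowest DEGS1 values were those of the 2 weak arrays: without the 3 weak arrays the change against scramble was -0.61 ± 0.18 (adjusted p = 0.193), and that against SPTLC123 was -0.77 ± 0.19 (adjusted p = 0.117).

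DNAJC3, the cochaperone p58IPK that also inhibits PERK, rose after SPTLC123 silencing. It read 9.16, 8.89 and 9.56 in SPTLC123 arrays, 9.02, 9.08 and 9.22 in DEGS1 arrays and 8.64, 8.37 and 8.69 in scramble arrays. Both knockdowns lay above scramble with no overlap. The change was 0.64 ± 0.16 for SPTLC123 (limma adjusted p = 0.026) and 0.54 ± 0.16 for DEGS1, which missed the threshold (adjusted p = 0.0537). The SPTLC123 call was lost without SPTLC123 replicate 1 or 3 or scramble replicate 1 or 2 (adjusted p up to 0.0989), and without the weak arrays the change was 0.46 ± 0.13 (adjusted p = 0.0824).

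The other 8 chaperones had no call in any comparison. The lectin chaperones CALR and CANX changed by -0.04 ± 0.13 and -0.01 ± 0.12 for SPTLC123 and by 0.14 ± 0.13 and 0.00 ± 0.12 for DEGS1. HSP90B1, the lumenal chaperone GRP94, had -0.08 ± 0.17 for SPTLC123 and -0.44 ± 0.17 for DEGS1 (limma adjusted p = 0.14). Its DEGS1 value without the weak arrays was -0.08. HYOU1, a nucleotide exchange factor of BiP, gave -0.12 and 0.05, and the BiP partners DNAJB11 and SDF2L1 gave -0.11 and -0.26 for SPTLC123 and -0.08 and 0.05 for DEGS1. MANF and CRELD2, secreted proteins that stress induces, gave -0.09 and 0.08 for SPTLC123 and -0.19 and 0.14 for DEGS1. Of the 8 members with the whole stress element in the window, limma called 0 for SPTLC123, with 0 at an unadjusted p under 0.05. For DEGS1 it called 2 of the 8, HSPA5 and XBP1, with 4 at an unadjusted p under 0.05. The calls over all members were 5 of 37 for SPTLC123 and 11 of 37 for DEGS1, and over all genes 9.94% and 9.7%.

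**Figure D2:**
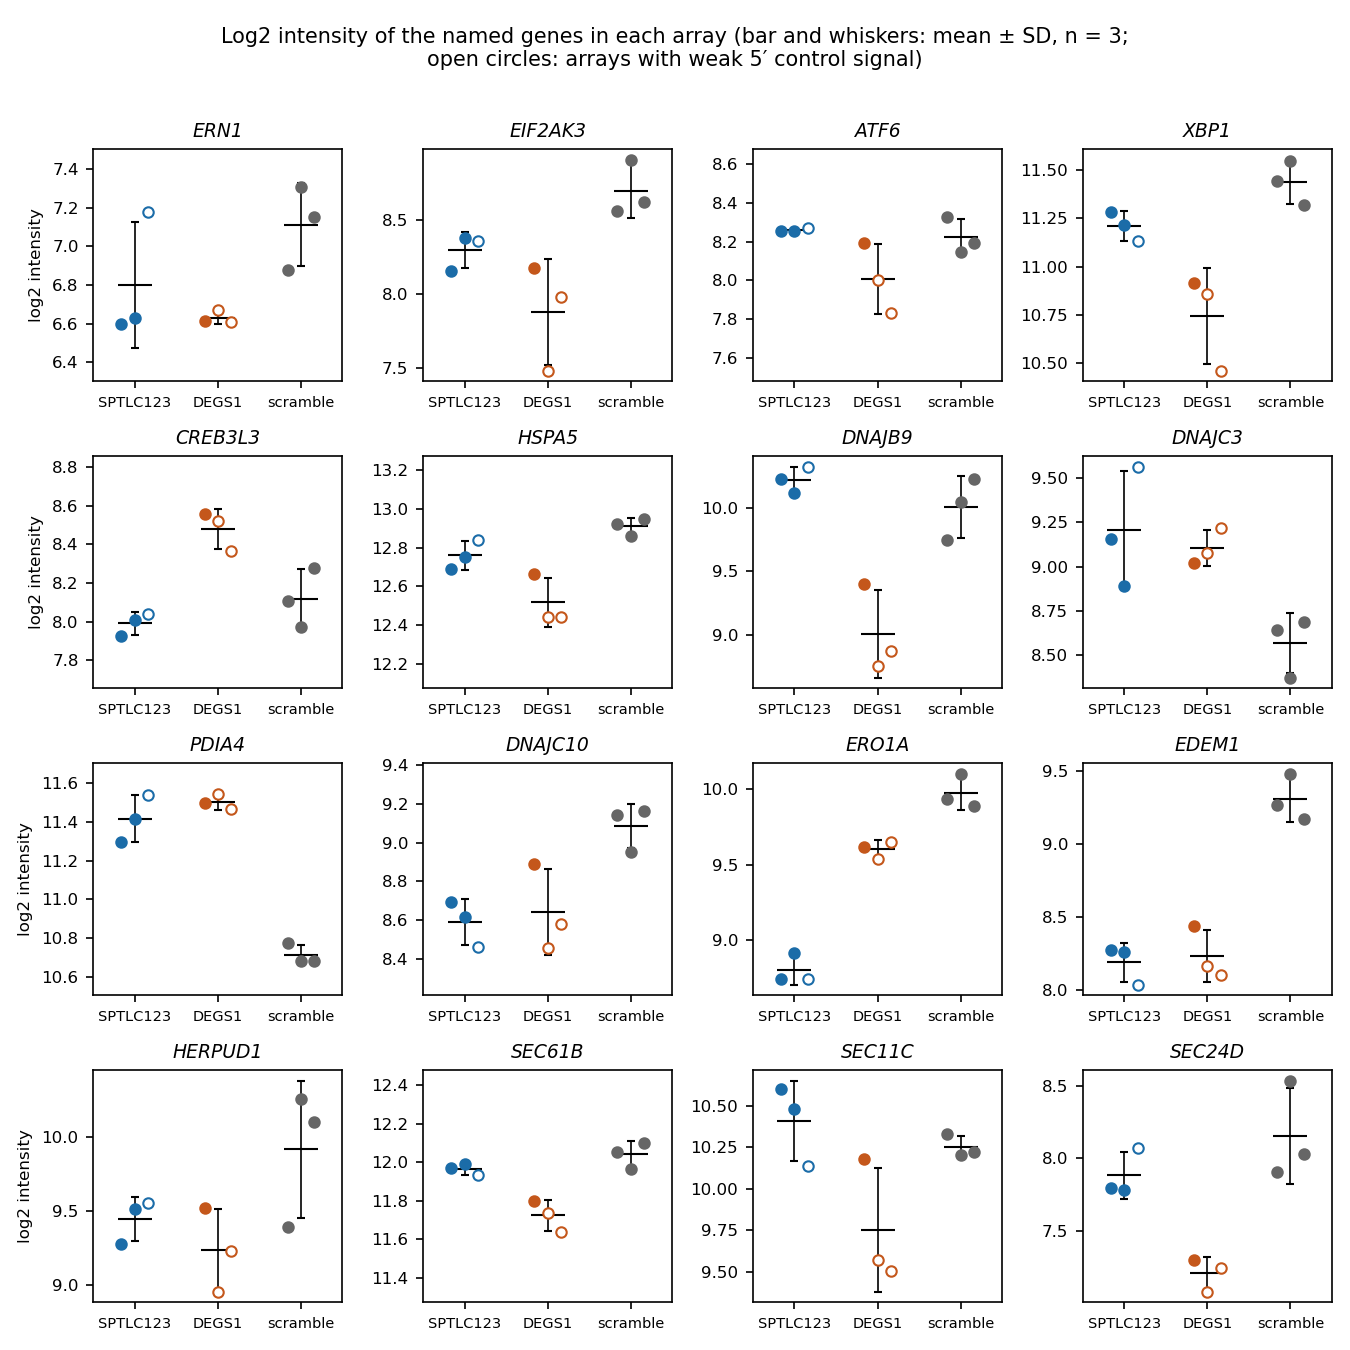
Log2 intensity of 16 members in every array, with SPTLC123, DEGS1 and scramble arrays from left to right, and bars and whiskers for the mean and SD of 3 arrays. Open circles are the 3 arrays with weak 5′ signal. EDEM1 and PDIA4 separate both knockdowns from scramble, DNAJB9 separates DEGS1 from the other 2 groups, and ERO1A takes 3 levels.

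The disulfide enzymes held changes in both directions. Of 7, 3 were called for each knockdown (1 rose and 2 fell), against 9.94% of all genes for SPTLC123 and 9.7% for DEGS1. They were the same genes, PDIA4, ERO1A and DNAJC10, in comparisons that share the scramble arrays. PDIA4, the isomerase ERp72, read 11.30, 11.42 and 11.54 in SPTLC123 arrays, 11.50, 11.55 and 11.47 in DEGS1 arrays and 10.77, 10.68 and 10.68 in scramble arrays. Both knockdowns lay above scramble in every array. It rose by 0.70 ± 0.09 after SPTLC123 silencing (limma adjusted p = 0.000693) and by 0.79 ± 0.09 after DEGS1 silencing (adjusted p = 0.00053), to 163% and 173% of the scramble level. The difference between the knockdowns was 0.09 ± 0.09 (adjusted p = 0.632). Without the weak arrays the rises were 0.64 ± 0.10 and 0.79 ± 0.12 (adjusted p = 0.00753 and 0.0287), and no single omission ended either call.

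ERO1A, the oxidase that passes electrons from the isomerases to oxygen, had the largest fall of all members after SPTLC123 silencing. It read 8.75, 8.91 and 8.75 in SPTLC123 arrays, 9.62, 9.54 and 9.65 in DEGS1 arrays and 9.94, 10.10 and 9.89 in scramble arrays. The groups formed 3 levels with no overlap. The SPTLC123 change was -1.17 ± 0.09, to 44.4% of the scramble level (limma adjusted p = 3.71e-05), and held under each single omission and without the weak arrays (-1.14 ± 0.11, adjusted p = 0.00108). The DEGS1 change was -0.37 ± 0.09 (adjusted p = 0.0322), a call lost without DEGS1 replicate 2 or 3 or any one scramble array (adjusted p up to 0.127) and without the weak arrays (-0.36 ± 0.14, adjusted p = 0.328). DEGS1 arrays were higher than SPTLC123 arrays by 0.80 ± 0.09 (adjusted p = 0.000504), and by 0.79 ± 0.15 without the weak arrays (adjusted p = 0.0478).

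DNAJC10, the reductase ERdj5 that opens disulfide bonds of proteins bound for degradation, fell in both knockdowns. It read 8.69, 8.62 and 8.46 in SPTLC123 arrays, 8.89, 8.46 and 8.58 in DEGS1 arrays and 9.14, 8.95 and 9.16 in scramble arrays. Scramble arrays lay above all others, while the 2 knockdowns overlapped. The changes were -0.50 ± 0.12 for SPTLC123 (limma adjusted p = 0.0271) and -0.45 ± 0.12 for DEGS1 (adjusted p = 0.045). The SPTLC123 call was lost without any one SPTLC123 array or scramble replicate 1 or 3 (adjusted p up to 0.0945), and without the weak arrays it was -0.43 ± 0.11 (adjusted p = 0.0469). The DEGS1 call was lost under all single omissions but those of SPTLC123 replicate 3 and DEGS1 replicate 1 (adjusted p up to 0.178), and without the weak arrays the change was -0.20 ± 0.14 (adjusted p = 0.622). The isomerases P4HB and PDIA3 had values from -0.14 to 0.06 in both knockdowns. PDIA6 gave -0.31 ± 0.20 for SPTLC123 and -0.65 ± 0.20 for DEGS1 (adjusted p = 0.403 and 0.065). Without the weak arrays the PDIA6 values were -0.18 and -0.11. ERO1B, the second oxidase, gave -0.21 for SPTLC123 and -0.16 for DEGS1.

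In the degradation group, EDEM1 was the 1 gene called of 8, and it fell in both knockdowns. Of all genes, 9.94% were called for SPTLC123 and 9.7% for DEGS1. EDEM1 is a mannosidase-related protein that marks misfolded glycoproteins for removal, and a known target of XBP1. It read 8.28, 8.26 and 8.04 in SPTLC123 arrays, 8.44, 8.16 and 8.10 in DEGS1 arrays and 9.27, 9.48 and 9.17 in scramble arrays. All 6 knockdown arrays lay below the scramble arrays. The changes were -1.11 ± 0.12 for SPTLC123 (limma adjusted p = 0.000262) and -1.07 ± 0.12 for DEGS1 (adjusted p = 0.000512), to 46.3% and 47.7% of the scramble level, and the difference between the knockdowns was 0.04 ± 0.12 (adjusted p = 0.879). Neither call was lost under a single omission, and without the weak arrays the changes were -1.04 ± 0.12 and -0.87 ± 0.15 (adjusted p = 0.00208 and 0.0357).

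HERPUD1, a membrane protein that assembles the degradation complex, showed wide spread. It read 9.28, 9.51 and 9.55 in SPTLC123 arrays, 9.52, 8.96 and 9.23 in DEGS1 arrays and 9.39, 10.26 and 10.10 in scramble arrays. Scramble replicate 1 lay among the knockdown arrays. The changes were -0.47 ± 0.21 for SPTLC123 and -0.68 ± 0.21 for DEGS1, neither called (limma adjusted p = 0.209 and 0.0657). The mannosidase-related EDEM2 gave -0.25 ± 0.14 in both comparisons, and EDEM3 gave 0.25 ± 0.11 for SPTLC123 and -0.09 ± 0.11 for DEGS1. SEL1L, the scaffold of the SYVN1 ligase, gave 0.09 and 0.22, and the channel-forming derlins gave -0.15, -0.09 and -0.12 for SPTLC123 and -0.43, -0.14 and -0.11 for DEGS1 (DERL1, DERL2 and DERL3). Without the weak arrays the DEGS1 values were -0.40 for HERPUD1, 0.59 for SEL1L and 0.02 for DERL1.

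Genes of entry and export were called after DEGS1 silencing in 2 of 5 cases, both lower, against 9.7% of all genes called. After SPTLC123 silencing limma called 0 of 5, against 9.94% of all genes, and 0 of 5 had an unadjusted p under 0.05. SEC24D, a cargo-binding subunit of the COPII coat, read 7.80, 7.78 and 8.07 in SPTLC123 arrays, 7.29, 7.08 and 7.24 in DEGS1 arrays and 7.91, 8.54 and 8.03 in scramble arrays. DEGS1 arrays lay below all others, and scramble replicate 2 was the highest. It fell after DEGS1 silencing by 0.95 ± 0.16 (limma adjusted p = 0.00376), to 51.6% of the scramble level, and the SPTLC123 change was -0.27 ± 0.16 (adjusted p = 0.336). The knockdowns differed by -0.68 ± 0.16 (adjusted p = 0.0206), a call lost without SPTLC123 replicate 1 or 3 or DEGS1 replicate 2 or 3 (adjusted p up to 0.0928). Without the weak arrays the change against scramble was -0.86 ± 0.22 (adjusted p = 0.13).

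SEC61B, a subunit of the channel through which chains enter, read 11.97, 11.99 and 11.93 in SPTLC123 arrays, 11.80, 11.73 and 11.64 in DEGS1 arrays and 12.05, 11.97 and 12.10 in scramble arrays. DEGS1 arrays were below all others. The DEGS1 change was -0.32 ± 0.09, to 80.4% of the scramble level (limma adjusted p = 0.0416), a call lost under all single omissions but those of SPTLC123 replicate 3 and DEGS1 replicate 1 (adjusted p up to 0.171) and without the weak arrays (-0.24 ± 0.12, adjusted p = 0.47). SEC11C, a catalytic subunit of signal peptidase, read 10.60, 10.48 and 10.14 in SPTLC123 arrays, 10.18, 9.57 and 9.51 in DEGS1 arrays and 10.33, 10.21 and 10.22 in scramble arrays. DEGS1 arrays lay below the scramble arrays, with a change of -0.50 ± 0.17 (limma adjusted p = 0.0995), and overlapped SPTLC123 arrays. The difference between DEGS1 and SPTLC123 arrays was -0.66 ± 0.17 (adjusted p = 0.04). That call was lost under all single omissions but those of SPTLC123 replicate 3 and DEGS1 replicate 1 (adjusted p up to 0.168), and without the weak arrays the difference was -0.36 ± 0.13 (adjusted p = 0.29). SEC61A1, the channel's pore subunit, and WFS1, a membrane protein of calcium balance, had values from -0.05 to 0.08 against scramble.

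**Figure D3:**
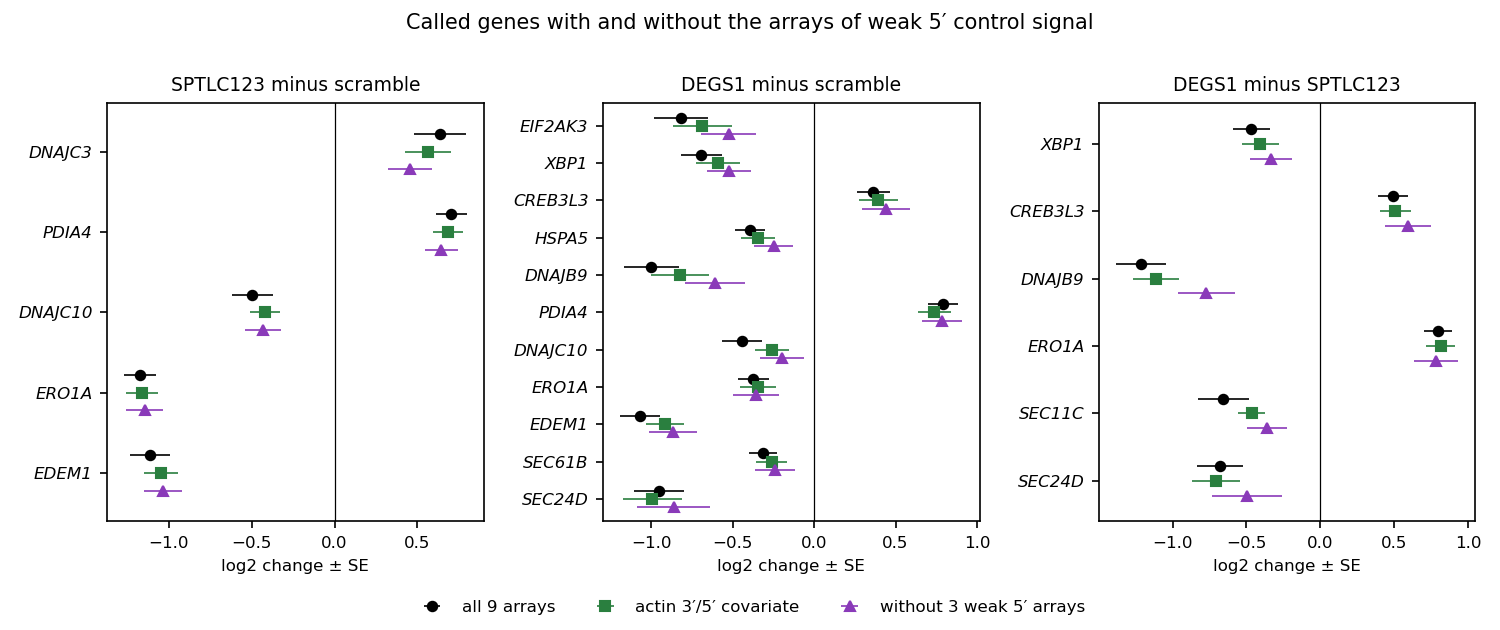
Log2 change and standard error of the called members under 3 fits: all 9 arrays, all 9 arrays with the actin 3′ minus 5′ difference as a covariate, and 6 arrays without the 3 of weak 5′ signal. PDIA4 and the SPTLC123 change of ERO1A keep close values in all 3, whereas the DEGS1 change of DNAJB9 is -1.0, -0.82 and -0.61.

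Other probe sets of the same genes were read as a check, since 29 of the 37 members had more than 1. Each of the 92 probe sets was tested on its own, and 9 (9.78%) were called for SPTLC123 against 5.96% of all 1-gene probe sets, 15 (16.3%) for DEGS1 against 5.16%, and 7 (7.61%) for DEGS1 against SPTLC123 with a background of 5.04%. All 3 probe sets of DNAJB9 fell after DEGS1 silencing, with changes on the other two of -1.64 ± 0.34 and -1.28 ± 0.20 (limma adjusted p = 0.0262 and 0.00767 over probe sets). The second probe set of PDIA4 rose in both knockdowns, by 0.47 for SPTLC123 and 0.78 for DEGS1 (adjusted p = 0.0235 and 0.00372). EDEM1 and CREB3L3 had a single probe set each. Without the weak arrays the DEGS1 values of the DNAJB9 probe sets were -0.61, -0.75 and -0.93, none called (adjusted p = 0.248, 0.192 and 0.1). With the probe sets of a gene averaged, the calls of DNAJC3 and DNAJC10 for SPTLC123 and of XBP1, HSPA5, SEC61B and SEC24D for DEGS1 were lost.

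The probe sets of ERO1A did not give the same picture. Its other two changed by -0.86 and -1.40 for SPTLC123 (adjusted p = 0.0552 and 0.0239) and by -1.09 and -1.02 for DEGS1 (adjusted p = 0.0264 and 0.0841). The difference between the knockdowns, 0.80 on the brightest probe set, was -0.23 and 0.38 on these, without a call (adjusted p = 0.624 and 0.521). Of 5 probe sets of DNAJC10, 1 was called against scramble over probe sets, with changes of -0.47 for SPTLC123 and -0.82 for DEGS1 (adjusted p = 0.0337 and 0.00414). The brightest of DNAJC10 missed that threshold (adjusted p = 0.0513 and 0.0779), and its other 3 gave -0.48, 0.13 and -0.31 for SPTLC123 and -0.93, -0.43 and 0.04 for DEGS1. None of the 4 probe sets of DNAJC3 was called by limma for SPTLC123 over probe sets: the brightest had an adjusted p of 0.0537, and the others gave 0.66, 0.12 and 0.28 (adjusted p from 0.43 to 0.894). The other probe sets of XBP1, HSPA5, EIF2AK3, SEC61B and SEC24D had no call, and those of XBP1, EIF2AK3, SEC61B and SEC24D lay below 4.87. HSPA5's other probe set gave 0.42 for SPTLC123 and 0.07 for DEGS1 (adjusted p = 0.0798 and 0.803).

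**Figure D4:**
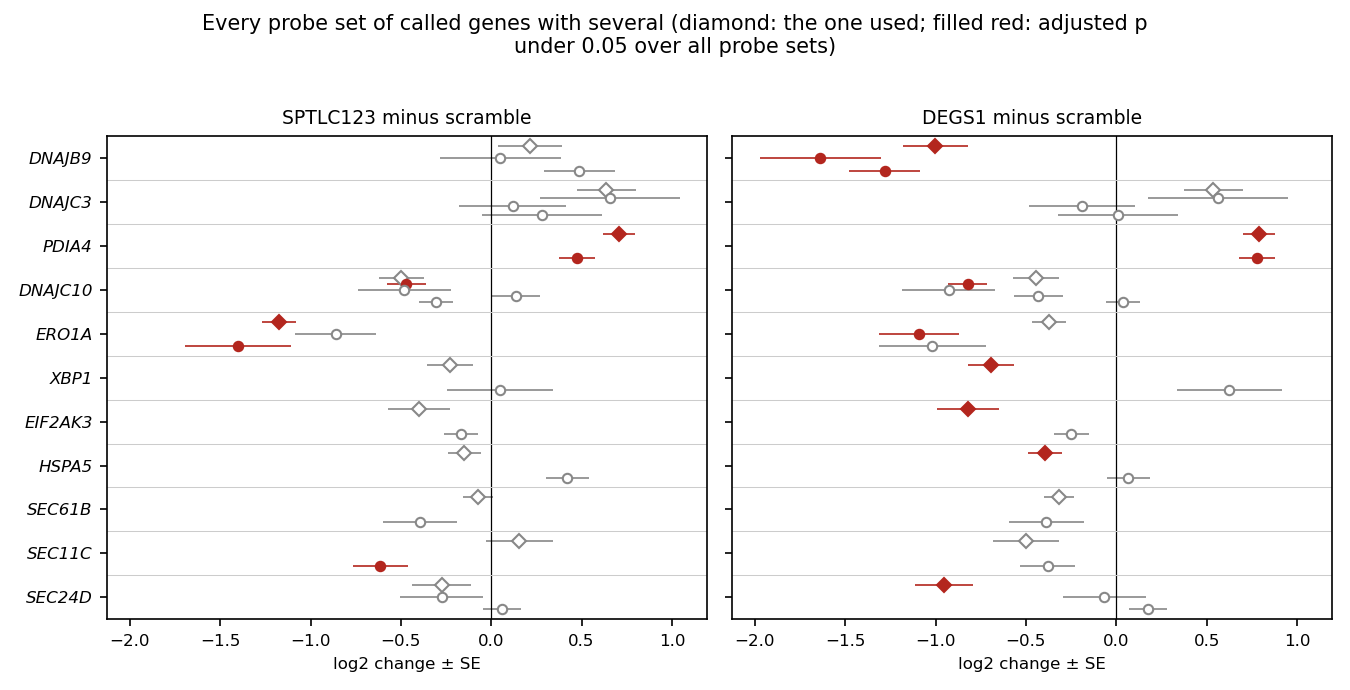
Log2 change and standard error of every probe set of the called members that have more than 1, against scramble, with a diamond for the probe set used. The 3 probe sets of DNAJB9 lie between -1.64 and -1.0 for DEGS1 and between 0.05 and 0.49 for SPTLC123, and those of ERO1A between -1.40 and -0.86 for SPTLC123.

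A wider list of 101 genes of the same organelle, of which 97 were measured, gave 15 calls for SPTLC123 (5 higher, 10 lower), 18 for DEGS1 (4 higher, 14 lower) and 15 between the knockdowns (6 higher, 9 lower). These were 15.5%, 18.6% and 15.5% of the list, against 9.94%, 9.7% and 8.66% of all genes, with medians of -0.06, -0.14 and -0.03. The directions moved with the scaling: median centring gave 8 higher and 5 lower calls for SPTLC123, and quantile normalization 7 higher and 6 lower between the knockdowns. The SPTLC123 count was 5 without SPTLC123 replicate 3 and 8 without SPTLC123 replicate 1 or scramble replicate 2 or 3. The DEGS1 count was 7 without DEGS1 replicate 2 or scramble replicate 3, 9 without DEGS1 replicate 3 and 30 without DEGS1 replicate 1, and that between the knockdowns was 9 without SPTLC123 replicate 1 or DEGS1 replicate 2. Without the 3 weak arrays the counts were 9, 3 and 3. FKBP14, a prolyl isomerase that acts on collagen, fell in both knockdowns: it read 7.24, 7.36 and 7.23 in SPTLC123 arrays, 7.88, 7.80 and 7.70 in DEGS1 arrays and 8.95, 9.03 and 8.95 in scramble arrays. The 3 groups did not overlap, and the changes were -1.70 ± 0.09 and -1.19 ± 0.09 (limma adjusted p = 1.75e-06 and 4.09e-05). SSR1, a subunit of the complex beside the entry channel, fell by 1.24 ± 0.11 after SPTLC123 silencing (adjusted p = 6.27e-05) and had -0.28 ± 0.11 after DEGS1 silencing (adjusted p = 0.135).

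SRPRA, the receptor subunit that docks ribosomes with nascent chains, rose by 1.04 ± 0.10 for SPTLC123 and 0.54 ± 0.10 for DEGS1 (limma adjusted p = 0.000118 and 0.00735). MBTPS1, the protease that first cuts ATF6 and the sterol factors in the Golgi, rose by 0.46 ± 0.12 and 0.75 ± 0.12 (adjusted p = 0.0342 and 0.0033). The SPTLC123 call of MBTPS1 was lost without SPTLC123 replicate 2 or 3 or scramble replicate 1 or 3 (adjusted p up to 0.111). Without the weak arrays MBTPS1 gave 0.42 for SPTLC123 and 0.75 for DEGS1 (adjusted p = 0.126 and 0.113), and the DEGS1 value of SRPRA was 0.51 (adjusted p = 0.118). The collagen chaperone SERPINH1 rose by 0.91 ± 0.10 for SPTLC123 (adjusted p = 0.000291), with 0.16 ± 0.10 for DEGS1 (adjusted p = 0.379). UGGT2, a glucosyltransferase of the lectin cycle, fell by 0.92 ± 0.10 for DEGS1 (adjusted p = 0.000429), with -0.25 ± 0.10 for SPTLC123 (adjusted p = 0.168). With the probe sets of a gene averaged, the DEGS1 calls of SRPRA and UGGT2 and the SPTLC123 call of MBTPS1 were lost.

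The PERK arm, from a list of 12 measured genes, had 0 limma calls for SPTLC123, with 5 genes at an unadjusted p under 0.05. For DEGS1 it had 1 call, the lipoprotein receptor VLDLR, which is named after its value was seen. The shares called over all genes were 9.94% and 9.7%. VLDLR read 4.02, 3.82 and 4.09 in DEGS1 arrays, against 4.38, 6.46 and 5.46 in scramble arrays, a change of -1.46 ± 0.38 (adjusted p = 0.0374). Every DEGS1 value and that of scramble replicate 1 lay below 4.87, the median level of all probe sets. With the actin covariate VLDLR had no limma call, at -1.56 for DEGS1 and -1.14 for SPTLC123 (adjusted p = 0.0748 and 0.0804). Without the weak arrays its DEGS1 change was -1.41. Scramble replicate 2 was the highest of all arrays in 9 of the 12 genes of this list, VLDLR among them. The call of VLDLR was lost without scramble replicate 2 (-0.94, adjusted p = 0.0759), and also without scramble replicate 3, DEGS1 replicate 2 or 3 or SPTLC123 replicate 1 or 2 (adjusted p up to 0.13). ATF4, the factor this arm translates, read 11.96, 11.99 and 12.09 in SPTLC123 arrays, 11.83, 12.14 and 11.98 in DEGS1 arrays and 11.99, 12.68 and 12.25 in scramble arrays. The groups overlapped, with scramble replicate 2 the highest, and the changes were -0.29 and -0.33 (limma adjusted p = 0.297 and 0.229). DDIT3, the CHOP factor of prolonged stress, gave -0.63 for SPTLC123 and -0.45 for DEGS1 (adjusted p = 0.116 and 0.254). PPP1R15A, which helps reverse the phosphorylation of PERK's substrate, gave 0.17 and 0.28, and TRIB3 gave -0.07 and -0.39, none called. Of 13 COPII export genes besides SEC24D, none was called against scramble by limma, and 2 for SPTLC123 and 4 for DEGS1 had an unadjusted p under 0.05.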

How the data were processed

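The authors deposited, per the file headers, 1 normalized intensity for each of 54675 probe sets in each of 9 arrays, on a linear scale from 4.88 to 27330.6. Per the submitters' processing notes limma 2.14.7, GCRMA 2.12.1 and RMA were used. What each did is not stated there, so which of RMA and GCRMA made the values is not settled. Control probe sets (62), those with several genes (1801) and those not listed with a symbol (11721) were left out. The other 41091 were log2-transformed with no pseudocount, and each of 19775 genes took its brightest probe set over all arrays. RefSeq held the gene numbers of 41037 of these probe sets, under the same symbols.

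The 3 group means were estimated from all 9 arrays together (limma 3.58.1 under R 4.3.3, lmFit then eBayes, 6 residual degrees of freedom). Tests were two-sided, with Benjamini-Hochberg adjustment over all genes, and the threshold for a call was 0.05. Errors are the SE of the fit. The fit was tested on simulated data. Array data have no read depth, and the number of arrays limits the precision.

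Members and lists were chosen with earlier results of these data known. Values in every array are given for each called member and for HSPA5, XBP1, ATF6, ERN1, EIF2AK3 and HERPUD1, and other members are given by their change. From the wider list, up to 4 called genes per comparison by adjusted p are named, and ATF4, DDIT3, PPP1R15A and TRIB3 whatever their values. The 5 promoters and the probe sets other than the brightest were chosen after values were seen. Alternatives were array weights, median centring, quantile normalization, omission of dim genes, robust eBayes with a variance trend (statmod 1.5.0), the 2 groups alone, each probe set tested separately, probe sets of a gene averaged, the replicate number as a block, the actin 3′ minus 5′ covariate, omission of 3 arrays or of each array, and a threshold of 0.01. An array counted as weak in 5′ signal where that actin difference was above 1.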

Additional observations from a re-analysis of the deposited data

Results flagged for a closer look

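The effects of the 2 knockdowns differed from each other by limma's test of that difference in 6 members. DNAJB9, the BiP cochaperone, differed by -1.21 (DEGS1 minus SPTLC123, adjusted p = 0.00136), and SEC24D of the COPII coat by -0.68 (adjusted p = 0.0206). XBP1 differed by -0.47 (adjusted p = 0.0423) and the signal peptidase subunit SEC11C by -0.66 (adjusted p = 0.04). ERO1A differed by 0.80 (adjusted p = 0.000504) and CREB3L3 by 0.49 (adjusted p = 0.0133), with DEGS1 higher in both. XBP1 and SEC11C lost the call under 7 single omissions each, SEC24D under 4 and CREB3L3 under 2. Without the 3 arrays of weak 5′ signal DNAJB9 differed by -0.77, SEC24D by -0.50, XBP1 by -0.33 and SEC11C by -0.36. In that fit ERO1A differed by 0.79 and CREB3L3 by 0.59. The other 2 probe sets of ERO1A gave -0.23 and 0.38, without a call.

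Further probe sets were called where the brightest probe set of their gene was not, with p-values adjusted over all probe sets by limma. For CREB3L2, a second probe set gave -0.77 for SPTLC123 and -0.84 for DEGS1 (adjusted p = 0.00242 and 0.00273). For SPTLC123, a second ERN1 probe set gave -0.50 (adjusted p = 0.0348) and a second SEC11C probe set gave -0.61 (adjusted p = 0.048), while the brightest SEC11C probe set gave 0.16. For DEGS1, a dim SEL1L probe set gave 0.53 (adjusted p = 0.0177), at a mean level of 4.71, below the median of all probe sets. A second DERL1 probe set gave 0.43 for DEGS1 (adjusted p = 0.0494), against -0.43 on the brightest one.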

How the results depend on the processing

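Member counts against scramble, 5 for SPTLC123 and 11 for DEGS1, and 6 between the knockdowns (DEGS1 against SPTLC123), kept within 1.5 times under dim-gene filtering, quantile normalization, median centring, the variance trend and fits of 2 groups. With each probe set tested on its own, and the brightest of each gene counted, there were 3 for SPTLC123 and 7 for DEGS1, and 11 of the wider list for DEGS1, while 7 and 12 members had a call on any probe set. Averaging the probe sets of a gene gave 2 members between the knockdowns, and XBP1 then differed by 0.057 (limma adjusted p = 0.875), with the sign turned. Median centring gave 1306 higher and 695 lower of all genes for SPTLC123, against 1051 and 915, and 548 higher and 1181 lower between the knockdowns, against 732 and 981. Array weights gave 19 members for DEGS1 and 14 between the knockdowns, 34 and 28 of the wider list, and 4263 and 3999 of all genes. The actin covariate gave 7 members and 1114 genes for DEGS1. Without the 3 weak arrays, DEGS1 had 2 members, 3 of the wider list and 259 genes, the knockdown comparison 1, 3 and 281, and SPTLC123 9 of the wider list. At a threshold of 0.01, SPTLC123 had 3 members, 5 of the wider list and 883 genes, DEGS1 5, 6 and 692, and the knockdown comparison 2, 8 and 717.

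Leaving out 1 array gave 3 to 5 members for SPTLC123, 6 to 16 for DEGS1 and 2 to 12 between the knockdowns. The wider list gave 5 to 18, 7 to 30 and 9 to 20, and all genes 1178 to 2381, 801 to 3614 and 841 to 2911. The cause of these shifts was not tested, beyond fewer arrays or a stricter threshold where that is the setting. The replicate numbers were not found to pair the arrays, since 3 of 9 same-number correlations exceeded 0.1. With the number as a block the members called were 5, 12 and 6. In the DEGS1 comparison this block ended the calls of CREB3L3 (adjusted p = 0.0667) and SEC61B (adjusted p = 0.0586). With 3 arrays a group, the median SE of a member's change was 0.13, which limits what changes can be told from 0.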

Other observations

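Within the wider list, genes of translocation and signal peptide removal were called for DEGS1 in 8 of 19 cases, 2 higher and 6 lower, with a median change of -0.13, against 9.7% of all genes called. Without the 3 weak arrays 0 of the 19 were called for DEGS1. SSR3, a subunit of the complex beside the entry channel, read 10.90, 10.98 and 10.80 in SPTLC123 arrays, 10.85, 10.48 and 10.67 in DEGS1 arrays and 11.40, 11.29 and 11.30 in scramble arrays. All knockdown arrays lay below the scramble arrays, with changes of -0.44 for SPTLC123 and -0.66 for DEGS1 (limma adjusted p = 0.0257 and 0.00348). Averaging the probe sets of SSR3 ended its SPTLC123 call. The SPTLC123 call of SSR3 was lost without SPTLC123 replicate 1 or 3 or any one scramble array (adjusted p up to 0.0889), and without the 3 weak arrays its values were -0.39 and -0.48 (adjusted p = 0.0502 and 0.127).

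Of 10 further oxidoreductases, 5 were called for SPTLC123, 1 higher and 4 lower, and 1 for DEGS1, against 9.94% and 9.7% of all genes. Without the 3 weak arrays TMX1 and TMX3 were the 2 called for SPTLC123. TMX1, a membrane-bound thioredoxin named after its values were seen, fell: it read 9.24, 9.21 and 9.10 in SPTLC123 arrays, 10.19, 9.64 and 9.65 in DEGS1 arrays and 10.58, 10.33 and 10.44 in scramble arrays. The groups did not overlap, and the changes were -1.27 ± 0.14 for SPTLC123 and -0.62 ± 0.14 for DEGS1 (limma adjusted p = 0.000303 and 0.0203). The DEGS1 call of TMX1 was lost without DEGS1 replicate 2 or 3 or scramble replicate 1 or 3 (adjusted p up to 0.0969), and its values without the weak arrays were -1.23 and -0.26 (adjusted p = 0.000662 and 0.491). TMX3, of the same family, was the 1 that rose. It read 8.49, 8.46 and 8.90 in SPTLC123 arrays, 7.37, 7.38 and 7.81 in DEGS1 arrays and 8.0, 7.96 and 8.02 in scramble arrays. SPTLC123 arrays lay above and DEGS1 arrays below the scramble arrays, with changes of 0.62 ± 0.14 (limma adjusted p = 0.0198) and -0.48 ± 0.14 (adjusted p = 0.0624). The SPTLC123 call was lost without SPTLC123 replicate 3 or any one scramble array (adjusted p up to 0.0651). The knockdowns differed by -1.10 ± 0.14, with DEGS1 lower (adjusted p = 0.000966), and by -1.11 without the weak arrays (adjusted p = 0.00675).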
